A study of Bos taurus with 4 samples.

Results

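Chromatin accessibility was examined at 9 genes of the tight and adherens junctions of epithelial cells, namely CLDN1, CLDN4, CLDN7, OCLN, F11R, TJP1, CGN, CDH1 and CTNNB1. Every listed ATAC-seq interval whose annotation named one of these genes was taken. After intervals of the 4 libraries that overlapped by at least 1 bp had been merged, the junction genes held 71 of 115970 regions, under 9 of the 24886 gene names in the table. A region was a promoter where its summit lay within 1000 bp of the annotated start of that gene, which was so for 10 regions, and distal otherwise, which was so for 61. Regions are named below by their gene and the distance of the summit from its start in bp, with negative values upstream, and coordinates refer to the cattle build UMD3.1 (bosTau8).

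Tight junctions seal the space between neighbouring epithelial cells near their apical side. Claudins and occludin span the membrane there, and scaffold proteins such as ZO-1 tie them to actin. Adherens junctions lie just below, where E-cadherin holds cells together and is bound inside the cell by beta-catenin. In the rumen, a stratified epithelium, these contacts keep microbes and their acids out of the body while short-chain fatty acids are taken up.

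ATAC-seq, in which a transposase cuts accessible DNA and tags it for sequencing, was performed on rumen epithelial primary cells (REPC) of 1 Holstein bull calf aged 2 weeks that had been raised on milk replacer. Of the 4 libraries, 2 came from untreated cells and 2 from cells kept for 24 h with 5 mM butyrate, a short-chain fatty acid that inhibits histone deacetylases. Which pair received butyrate is contradictory in the labels, since the descriptions and the table of values name the first pair Control and the titles and treatment field assign it to butyrate. Here the pairs go by the names in the table, Control-named (2 libraries) and BT-named (2 libraries). The pairs are the same under either reading, and only the sign of a difference would turn.

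Each library came as a list of intervals with a peak value, the signal at the summit, and an average value, the mean signal over the interval. A region missing from a list is called unlisted, which is not a measurement of 0, and no library listed a peak value below 21. The scaling of the signal across libraries was not given in the sources used here. A region listed in all 4 libraries was therefore called higher or lower in the BT-named libraries only where limma gave an adjusted p under 0.05 in the same direction with the values as deposited, after median centring and after quantile normalization. Log2 fold changes, given with their SE, compare the average value plus 1 in BT-named with Control-named libraries as deposited.

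The Control-named lists held 94941 and 98962 intervals and the BT-named lists 83391 and 84808. Log2 average values correlated at 0.969 and 0.967 between the libraries of a group and at 0.815 to 0.836 across groups (65892 regions, which are not independent replicates). The median log2 fold change of these regions was −0.24 as deposited. After median centring it was 0.13, and the values below should be read against that shift. The paper's supplement names the libraries of a group biological replicates, but no source used here says that they were separate cultures, and p-values measure only the spread between these libraries. In bulk cells, fewer cells of a type and less signal per cell cannot be told apart.

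The label of the cells was checked against promoters of marker genes. A promoter was listed in at least 1 library for 8 of 10 epithelial markers, among them the keratins KRT5, KRT8, KRT14, KRT18 and KRT19 and the adhesion molecule EPCAM, while those of TP63 and GRHL2 were unlisted. The same was found for 7 of 10 fibroblast, 5 of 5 smooth muscle, 1 of 5 endothelial and 3 of 6 immune markers, with PECAM1, CDH5, VWF, TEK, PTPRC, CD3E and CD14 unlisted, as were COL3A1, LUM and PDGFRA. The summed average value of the epithelial promoters ranged from 577.9 to 750.6 in Control-named and from 923.6 to 991.8 in BT-named libraries. KRT14 (log2 fold change 1.45 ± 0.19) and KRT18 (0.86 ± 0.14) were higher in the BT-named libraries, and KRT19 was listed in these alone. KRT5 (−0.63 ± 0.18, limma, adjusted p = 0.00211) and EPCAM (−0.48 ± 0.19, adjusted p = 0.0282) passed as lower with the values as deposited and were not called under all 3 scalings. Without KRT14, KRT18 and KRT19 the epithelial sums were 429.6 and 574.5 in the Control-named and 479.3 and 503.8 in the BT-named libraries, which overlapped. The summed values ran from 613.4 to 733.9 and from 521.5 to 579.4 for fibroblast markers, of which VIM was lower (−0.67 ± 0.12) and THY1 had 0.22 ± 0.20, and from 609.8 to 638.9 and from 439.3 to 462.7 for smooth muscle markers. Without VIM and DCN, a gene listed in the Control-named libraries alone, the fibroblast sums were 278.0 and 369.2 against 332.4 and 366.7 and overlapped as well. An unlisted promoter adds nothing to a sum, however. COL1A1 was unlisted in Control-named library 1 and had average values of 107.5 in Control-named library 2 and 116.8 and 144.7 in the BT-named libraries. The fibroblast overlap thus depends on a missing value. In both lists the genes left out were those called or listed in 1 group alone, so both overlaps follow in part from that choice. The sums of the other lists ran from 33.8 to 39.1 and from 29.8 to 33.9 for the 1 endothelial gene listed, KDR, where the groups overlapped. For the immune markers they ran from 179.3 to 210.8 and from 141.3 to 160.0. The epithelial, fibroblast, smooth muscle and immune sums differed between the groups as deposited, with no scaling between libraries. MYH11 and DES add nothing to the smooth muscle sums of the BT-named libraries. DES was unlisted in both, as was the promoter region of MYH11 used for the sums, but another promoter region of MYH11 was listed in BT-named library 2. After median centring, the median log2 fold changes of promoters listed in all 4 libraries were 0.46, −0.03, 0.18 and 0.05 in these lists. For all gene promoters it was 0.25. No smooth muscle or immune marker was called. The part of these sums in the results at the junction genes was not tested.

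The first question was how many regions of the junction genes were accessible enough to be listed in each group. The Control-named libraries listed 59 and 63 of the 71 regions and the BT-named libraries 52 and 49. Both BT-named libraries were thus below both Control-named libraries, with 50.5 ± 2.12 against 61.0 ± 2.83 regions (SD, n = 2 each), a difference of −10.5 (exact permutation test, two-sided, p = 0.333, the smallest that 2 against 2 libraries allow). The BT-named mean was 82.8% of the Control-named mean, beside 86.5% over all merged regions. The listed intervals covered on average 24.7 kb near junction genes in BT-named and 29.3 kb in Control-named libraries.

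CTNNB1, the gene of beta-catenin, had the largest relative difference of the 9 genes, with 6 listed in each Control-named and 3 in each BT-named library. TJP1, which encodes the scaffold ZO-1, had 16 and 18 regions in the Control-named and 15 and 12 in the BT-named libraries. OCLN, the gene of occludin, had 7 in each Control-named and 6 in each BT-named library, and CLDN1 had 3 and 2. CLDN4 had 4 regions in every library, and the counts of CLDN7, CGN, CDH1 and F11R overlapped between the groups.

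Of the 71 regions, 45 (63.4%) were listed in all 4 libraries, beside 56.8% of all merged regions. A further 8 (11.3%) were listed in both Control-named libraries and no other, beside 13.1% of all regions, and 0 in both BT-named libraries alone, beside 4.51%. Another 13 regions were listed in 1 library, 7 of them in a Control-named and 6 in a BT-named library, and 5 in other combinations. Peak values of the regions listed once ran from 25 to 94 in the Control-named and from 31 to 54 in the BT-named libraries, the highest being F11R 1509 in Control-named library 2. The regions found in both Control-named lists alone were mostly of low signal. Their median highest peak value was 49.0, against 172.0 for the junction regions listed in all 4 libraries. Over all merged regions of these classes the medians were 61.0 and 157.0.

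**Figure D1:**
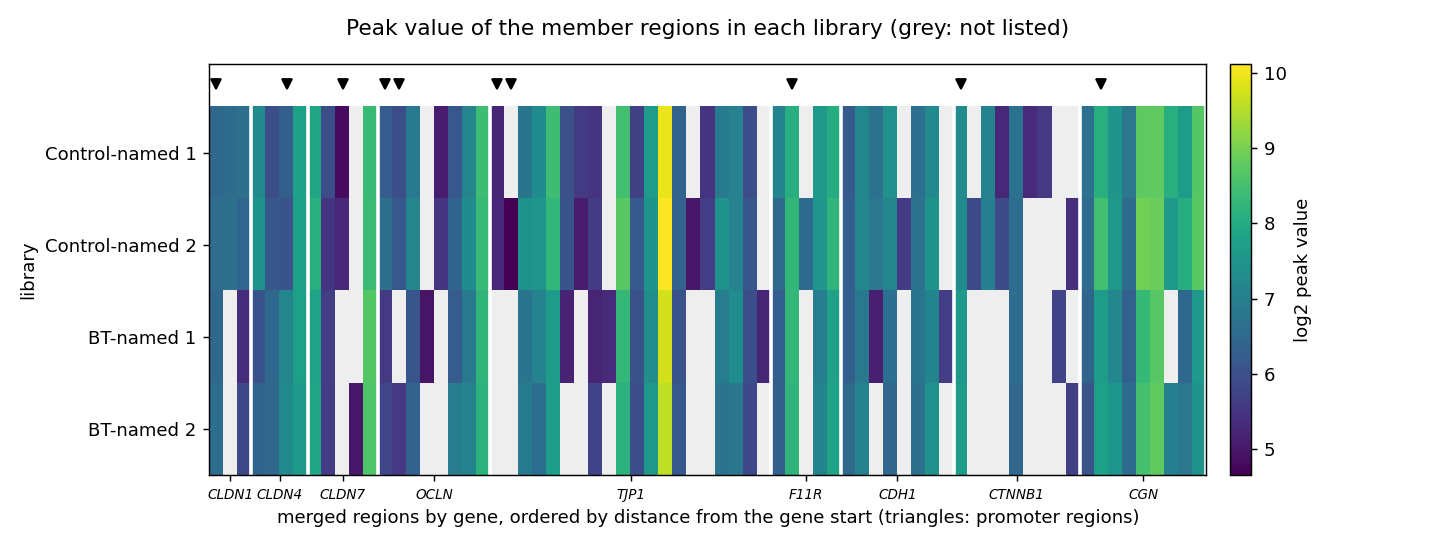
Peak value of the 71 regions of the 9 junction genes in each of the 4 libraries, on a log2 colour scale, with regions ordered by gene and by distance from the gene start, grey where a region was unlisted and triangles over the 10 promoter regions. The grey cells are more frequent in the 2 lower rows (BT-named), and the block of CTNNB1 keeps 3 filled cells in each of them.

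The exceptions were in CTNNB1 and CLDN1. The region CTNNB1 8751 (chr22:13851238-13851628), inside the gene, had peak values of 134 and 126 in the Control-named libraries, above those of 93.7% of the 15188 regions that both Control-named libraries alone listed. The nearest BT-named intervals were 4060 and 4281 bp away. CLDN1 2110 (chr1:77598349-77598696), inside the gene of claudin-1, had peak values of 96 and 101 and stood above 85.0% of that class. The other 6 such regions, CTNNB1 12407, OCLN 33973, TJP1 58579, TJP1 188963 and the promoters of CLDN7 and TJP1, had peak values between 28 and 60.

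The second question was whether the promoters of the junction genes differed in signal. A promoter was listed in at least 1 library for 8 of the 9 genes, in all 4 libraries for 6 of them and in both Control-named libraries only for 2, CLDN7 and TJP1. Over the 14804 genes with a listed promoter, 87.2% had it in all 4 libraries, 3.14% in both Control-named only and 1.58% in both BT-named only. A CpG island was annotated at 9 of the 10 promoter regions, the exception being that of CGN. Of the 6 promoters listed in all 4 libraries, 1 was called higher, that of CLDN4, and 0 lower, beside 4.06% called higher and 4.72% lower of 12871 gene promoters. At an unadjusted p under 0.05 under all 3 scalings, 1 was higher and 0 lower as well. As deposited alone, 2 were lower, those of OCLN and CGN, beside 20.5% of gene promoters.

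**Figure D2:**
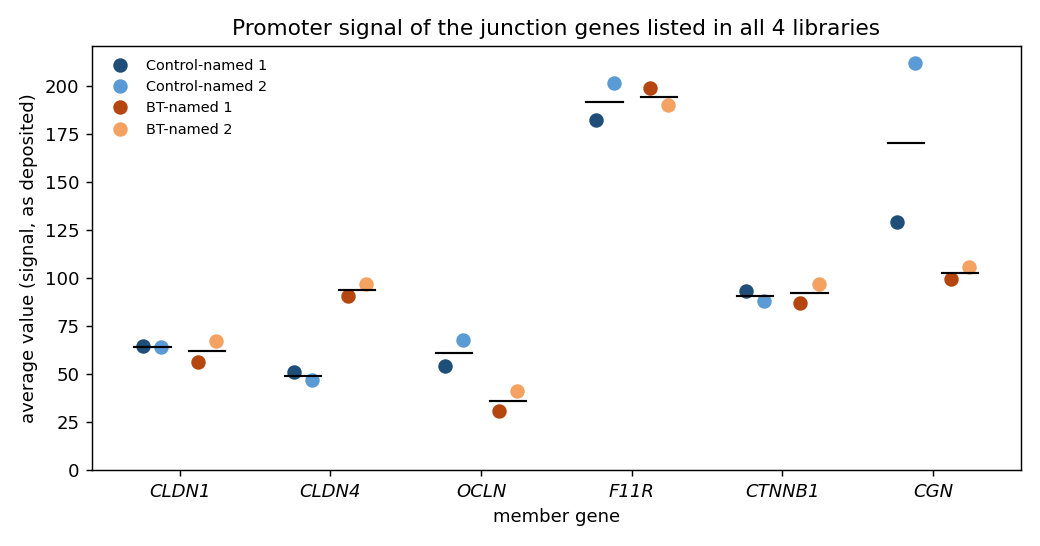
Average value (signal as deposited) at the promoter of the 6 junction genes whose promoter was listed in all 4 libraries, with 1 point per library and a bar at the mean of each group of 2. At CLDN4 both BT-named points (90.5 and 97.0) lie above both Control-named points (51.1 and 46.9), at OCLN and CGN below them, and at CLDN1, F11R and CTNNB1 the groups overlap.

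Among the transmembrane proteins, CLDN4 had the largest change. Its product, claudin-4, is a barrier-forming claudin. The promoter region CLDN4 −194 (chr25:33989349-33990105), at a CpG island, had average values of 51.1 and 46.9 in the Control-named and 90.5 and 97.0 in the BT-named libraries. At the summit the signal was 79 and 66 against 141 and 152. Both BT-named libraries were above both Control-named libraries by either measure. The mean rose from 49.0 ± 2.96 to 93.7 ± 4.54 (SD, n = 2 each), a log2 fold change of 0.92 ± 0.18 (limma, Benjamini-Hochberg adjusted p = 5.86e-06) and of 1.28 after median centring.

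The region farthest upstream of CLDN4 moved the other way. CLDN4 −7938 (chr25:33997058-33997849), upstream of the gene and without a CpG island, had average values of 117 and 132 in the Control-named and 49.9 and 61.8 in the BT-named libraries, and peak values of 151 and 175 against 65 and 85. Both BT-named libraries were the low ones. The mean fell from 124.7 ± 10.7 to 55.8 ± 8.40, a log2 fold change of −1.15 ± 0.17 (limma, adjusted p = 4.16e-09) and of −0.79 after median centring.

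Between them, CLDN4 −2522 (chr25:33992011-33992368) had average values of 49.2 and 58.5 in the Control-named and 68.5 and 69.0 in the BT-named libraries. The groups did not overlap, but the log2 fold change of 0.35 ± 0.19 did not pass the test as deposited (limma, adjusted p = 0.115), whereas that of 0.71 after median centring did. Downstream of the gene, CLDN4 6782 (chr25:33982576-33983288) was the highest of the 4 regions in every library by peak value, at 219 and 221 against 212 and 194 in the BT-named libraries. Its log2 fold change of the average value was 0.03 ± 0.15 (limma, adjusted p = 0.902) as deposited and passed as 0.39 after median centring.

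A ratio of 2 regions within a library does not change where a whole library is multiplied by a factor. The average value of the CLDN4 promoter divided by that of CLDN4 −7938 was 0.436 and 0.355 in the Control-named and 1.81 and 1.57 in the BT-named libraries. The distal region thus had the higher signal of the pair in both Control-named libraries and the promoter in both BT-named libraries (log2 difference of the means 2.10, exact permutation p = 0.333, two-sided, the smallest possible). This pair was chosen after its values had been seen. Over the 12871 promoters listed in all 4 libraries, those nearest to the CLDN4 promoter in level by Euclidean distance of log2 average values across the 4 libraries were those of SOX7 (0.10), LOC511354 (0.16) and GRO1 (0.19). The SOX7 promoter had average values of 48.3, 45.7, 92.9 and 96.9.

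The other claudins did not share this pattern at their start sites. At the CLDN1 promoter (CLDN1 −66, chr1:77596125-77596752, CpG island) the average values were 64.7 and 64.0 in the Control-named and 56.5 and 67.5 in the BT-named libraries. The groups overlapped, and the log2 fold change was −0.06 ± 0.19 (limma, adjusted p = 0.825). Inside the gene, CLDN1 4462 had peak values of 101 and 86 against 41 and 57, and its log2 fold change of −0.65 ± 0.19 passed the test as deposited (limma, adjusted p = 0.00318) but not after median centring (−0.29, adjusted p = 0.183). The third region, CLDN1 2110, lay between them and was unlisted in the BT-named libraries.

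CLDN7, another claudin of epithelia, had a promoter region, CLDN7 410 (chr19:27605021-27605301, CpG island), with peak values of only 28 and 39 in the Control-named libraries and unlisted in the BT-named ones. These values were close to the lowest listed value, and 4.73% of the regions of that class were lower. The nearest BT-named interval was 4828 bp away in library 1 and 1108 bp away in library 2, the latter being CLDN7 1842, listed in that library alone with a peak value of 32. The 2 strongest regions near CLDN7 were promoters of neighbours. CLDN7 −10158 lay at the start of SLC2A4, a glucose transporter gene, with a log2 fold change of 0.07 ± 0.15, and CLDN7 9234 at the starts of ELP5 and CTDNEP1. CLDN7 9234 had peak values of 329 and 339 in the Control-named and 407 and 391 in the BT-named libraries, with a log2 fold change of the average value of 0.23 ± 0.13 (limma, adjusted p = 0.143) as deposited and 0.59 (adjusted p = 5.2e-05) after median centring. Between the promoter and SLC2A4, CLDN7 −4734 had peak values of 62 and 44 against 50 and 49 and a log2 fold change of 0.00 ± 0.19.

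OCLN had 2 promoter regions, both at CpG islands. OCLN 21 (chr20:10200976-10201604) had average values of 54.2 and 67.7 in the Control-named and 31.0 and 41.3 in the BT-named libraries, and peak values of 76 and 101 against 47 and 55. Both BT-named libraries were the low ones, and the log2 fold change of −0.74 ± 0.20 passed as deposited (limma, adjusted p = 0.000858) and after quantile normalization (−0.52) but not after median centring (−0.38, adjusted p = 0.0902), so it was not called. OCLN 549 was unlisted in BT-named library 1 and had peak values of 62, 70 and 47 in the other libraries. Inside the gene, OCLN 16477 gave a log2 fold change of −0.58 ± 0.19 and OCLN 37349 one of 0.28 ± 0.19, neither of them called. OCLN 37349 had peak values of 70 and 85 against 75 and 125, so the groups overlapped and the BT-named libraries lay far apart. The 2 farthest regions, OCLN 51605 and OCLN 52445, lay at the start of the neighbouring gene GTF2H2 and had log2 fold changes of −0.29 ± 0.17 and −0.11 ± 0.14.

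F11R, which encodes the junctional adhesion molecule JAM-A, had the highest promoter average of the 6 genes in both groups. F11R 445 (chr3:8483214-8483770, CpG island) had average values of 182 and 202 in the Control-named and 199 and 190 in the BT-named libraries. The groups overlapped, with a log2 fold change of 0.02 ± 0.14 (limma, adjusted p = 0.922) as deposited. It passed as higher after median centring (0.38) and after quantile normalization (0.34), so the promoter was not called under all 3 scalings. The distal regions F11R −3947, F11R 3525 and F11R 24933 had log2 fold changes of −0.42 ± 0.18, −0.42 ± 0.16 and −0.27 ± 0.15. In all 3 both BT-named libraries were below both Control-named libraries, but after median centring the values lay between −0.06 and 0.10, and none was called.

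Of the cytoplasmic scaffold genes, TJP1 had the most regions, 20 in all, of which 12 were listed in all 4 libraries. Its annotated start held little signal. TJP1 −573 (chr21:29195026-29195314) had peak values of 37 and 39 in the Control-named libraries and was unlisted in the BT-named ones, where the nearest intervals were 25545 and 25535 bp away. TJP1 −125 was listed in Control-named library 2 alone, with a peak value of 25. Both regions lay at CpG islands, as did TJP1 147443, a region inside the gene with peak values of 203, 178, 163 and 195 and a log2 fold change of 0.03 ± 0.16.

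The highest signal near any junction gene was inside TJP1. TJP1 155251 (chr21:29039102-29039688) had peak values of 997 and 1115 in the Control-named and 856 and 777 in the BT-named libraries, and its mean average value of 490.7 was above that of 99.9% of regions listed in all 4. Its log2 fold change was −0.38 ± 0.10 (limma, adjusted p = 0.000657) as deposited and −0.01 after median centring, so it was not called. The region that was called was TJP1 96371 (chr21:29098010-29098927), also inside the gene. It had average values of 234 and 255 in the Control-named and 148 and 133 in the BT-named libraries, and both BT-named libraries were the low ones. The mean fell from 244.5 ± 15.4 to 140.9 ± 10.5, a log2 fold change of −0.79 ± 0.14 (limma, adjusted p = 3.27e-07) and of −0.43 after median centring. By peak value, which was 360 and 425 against 315 and 282, the log2 fold change was −0.39 and the region was not called. TJP1 43443 had peak values of 344 and 310 against 203 and 210 and a log2 fold change of −0.67 ± 0.15, which passed as deposited and narrowly missed the threshold after median centring (−0.31, adjusted p = 0.0554). TJP1 50963 was unlisted in BT-named library 2 and had peak values of 64, 67 and 36 in the others. The other 9 regions of TJP1 listed in all 4 libraries, TJP1 147443 among them, had log2 fold changes from −0.48 to 0.07, and none was called.

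CGN encodes cingulin, which binds ZO-1 and actomyosin on the inner side of the tight junction. Its promoter CGN −10 (chr3:19315720-19316487), without a CpG island, had average values of 129 and 212 in the Control-named and 99.5 and 106 in the BT-named libraries. Both BT-named libraries were below both Control-named libraries, which differed from each other by more than the lower of them did from the BT-named pair. The interval was 768 bp long in Control-named library 1 and only 473 bp in library 2, beside 710 and 749 bp in the BT-named libraries. An average value depends on these bounds. Peak values were 274 and 353 against 200 and 216. The log2 fold change of −0.69 ± 0.16 passed as deposited (limma, adjusted p = 0.00014) but not after median centring (−0.32, adjusted p = 0.0739), so the promoter was not called. Without Control-named library 1 it was called lower (−1.04), and without Control-named library 2 it was not (−0.33).

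The 2 regions that were called near CGN lay beyond its end, inside TUFT1, the gene of tuftelin. CGN 34454 (chr3:19281262-19281730) was 7824 bp into TUFT1 and had average values of 248 and 277 in the Control-named and 133 and 110 in the BT-named libraries, with peak values of 408 and 422 against 196 and 172. The mean fell from 262.3 ± 20.8 to 121.5 ± 16.4, a log2 fold change of −1.11 ± 0.14 (limma, adjusted p = 6.63e-12). CGN 33174 (chr3:19282586-19283008), which was 6544 bp into TUFT1, had average values of 146 and 182 against 74.8 and 84.9. Its mean fell from 163.9 ± 26.0 to 79.8 ± 7.19, a log2 fold change of −1.02 ± 0.16 (limma, adjusted p = 1.85e-08). In both regions each BT-named library was below each Control-named one, and both calls held with the peak value.

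Other regions around the end of CGN were as strong and were not called. CGN 26550, at the start of TUFT1, had peak values of 440 and 467 in the Control-named and 418 and 439 in the BT-named libraries and a log2 fold change of −0.27 ± 0.12. CGN 23830, inside CGN, had peak values of 434 and 499 against 320 and 364 and a log2 fold change of −0.45 ± 0.12, and CGN 28630 was unlisted in BT-named library 1. The average value of CGN 34454 divided by that of CGN 26550 within a library was 0.797 and 0.850 in the Control-named and 0.479 and 0.442 in the BT-named libraries, a pair chosen after its values had been seen. Divided by that of the CGN promoter it was 1.92 and 1.31 against 1.34 and 1.04, which overlapped (exact permutation p = 0.667, two-sided). CGN 5062, CGN 12854 and CGN −5354 had log2 fold changes from −0.27 to −0.16, close to the median of all regions.

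**Figure D3:**
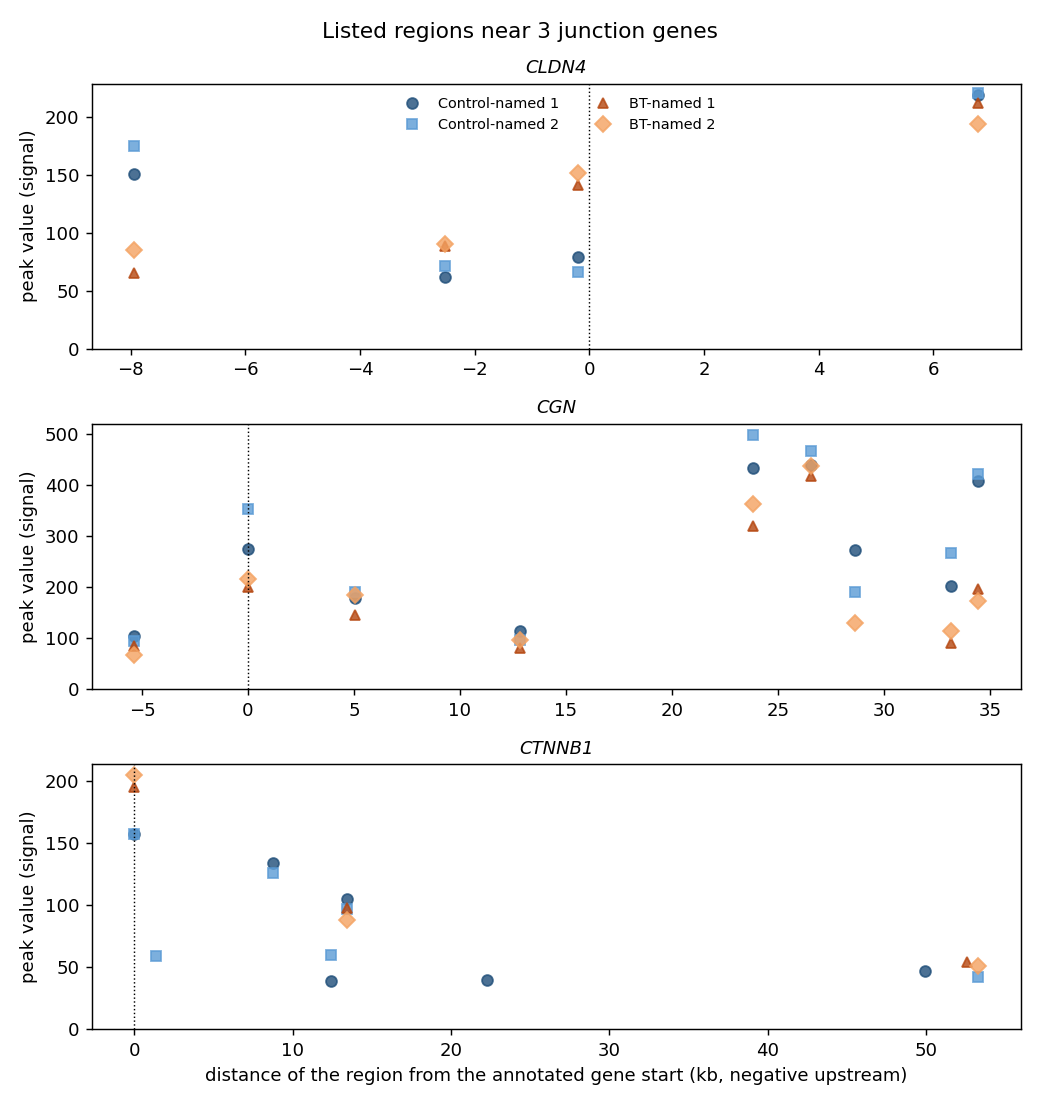
Peak value (signal as deposited) of each listed region of CLDN4, CGN and CTNNB1 against its distance from the annotated gene start in kb, with 1 marker per library and a dotted line at the start. At CLDN4 the BT-named markers are above the Control-named ones at the promoter (141 and 152 against 79 and 66) and below them at the farthest upstream region (65 and 85 against 151 and 175). At CGN they are below at the 2 most distant regions, and at CTNNB1 the region 8751 bp into the gene has Control-named markers alone.

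Of the adherens junction genes, CDH1, which encodes E-cadherin, had no region within 1000 bp of its annotated start in any library. The nearest was CDH1 −2213 (chr18:36219287-36219696), with peak values of 143 and 144 in the Control-named and 115 and 133 in the BT-named libraries and a log2 fold change of −0.19 ± 0.17 (limma, adjusted p = 0.385). CDH1 −4885 had peak values of 73 and 78 against 79 and 93 and a log2 fold change of 0.09 ± 0.19. Inside the gene, CDH1 7035 had peak values of 105 and 112 in the Control-named libraries, 35 in BT-named library 1 and was unlisted in BT-named library 2. CDH1 13083 had peak values of 171 and 143 against 100 and 88, and its log2 fold change of −0.43 ± 0.18 passed as deposited (limma, adjusted p = 0.0424) but was −0.07 after median centring. CDH1 24059 (0.03 ± 0.17) and CDH1 25371 (0.00 ± 0.17) lay beyond the gene, the latter at the start of TANGO6. With median centring alone, CDH1 −4885 (0.45), CDH1 24059 (0.39) and CDH1 25371 (0.36) passed as higher. No region of CDH1 was called under all 3 scalings.

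CTNNB1 encodes beta-catenin, which joins E-cadherin to alpha-catenin and also carries Wnt signals to the nucleus. Its promoter CTNNB1 15 (chr22:13841866-13842918, CpG island) had average values of 93.2 and 88.2 in the Control-named and 87.3 and 97.0 in the BT-named libraries. By this measure the groups overlapped (log2 fold change 0.02 ± 0.17, limma, adjusted p = 0.934, as deposited). It passed as higher after median centring (0.38) and after quantile normalization (0.39), so the promoter was not called. Peak values of the promoter were 157 and 157 against 195 and 205 and did not overlap. The log2 fold change of the peak value, 0.35, did not pass as deposited (limma, adjusted p = 0.102) and was not called either. It passed as 0.76 after median centring and 0.78 after quantile normalization. CTNNB1 13455 was the only other region of the gene listed in all 4 libraries, with peak values of 105 and 97 against 98 and 88 and a log2 fold change of −0.35 ± 0.18. The regions of CTNNB1 that the BT-named libraries lacked were thus distal, and its promoter was listed in all 4 libraries.

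The average value is a mean over the bases of an interval, and the promoters are ordered here by its group mean. Interval bounds differed between libraries and between promoters, so the order depends on them. The 6 genes ran F11R, CGN, CTNNB1, CLDN1, OCLN and CLDN4 in the Control-named libraries, from 191.9 ± 13.6 down to 49.0 ± 2.96 (SD, n = 2). In the BT-named libraries the order was F11R, CGN, CLDN4, CTNNB1, CLDN1 and OCLN, from 194.4 ± 6.32 down to 36.2 ± 7.28. By these means CLDN4 went from the last place to the third. By peak value it did not reach that place, since CLDN4 (141 and 152) lay below CTNNB1 (195 and 205) in the BT-named libraries. In the Control-named libraries the peak values of CLDN4 (79 and 66) overlapped those of OCLN (76 and 101). The Control-named average values of F11R (182 and 202) overlapped those of CGN (129 and 212), and those of CLDN1 (64.7 and 64.0) overlapped those of OCLN (54.2 and 67.7). In the BT-named libraries those of CLDN4 (90.5 and 97.0) overlapped those of CTNNB1 (87.3 and 97.0). None of these 3 pairs can thus be put in order by average value, while no other neighbours overlapped.

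Over the 45 regions listed in all 4 libraries, 1 (2.22%) was called higher, beside 6.89% of all 65892 regions, and 4 (8.89%) were called lower, beside 20.0%. At an unadjusted p under 0.05 under all 3 scalings these counts were 1 and 5. The scaling set most of the count. As deposited alone, 1 was higher and 16 lower, beside 6.9% and 39.4% of all regions. With median centring alone, 13 were higher and 4 lower, beside 30.2% and 20.4%, and with quantile normalization alone 12 and 6, beside 23.3% and 22.7%. By peak value, 1 was called higher and 3 lower under all 3 scalings, beside 6.79% and 21.2%. The regions called were the CLDN4 promoter, CLDN4 −7938, TJP1 96371, CGN 33174 and CGN 34454, so 6 of the 9 genes had none. The median log2 fold change was −0.26 for the junction regions against −0.24 for all regions, and −0.02 for the 6 junction promoters against −0.12 for all gene promoters. Average values did not overlap between the groups in 25 regions with the BT-named libraries below, beside 54.4% of all regions, and in 4 with them above, beside 15.9%. In all, 27 of the 71 regions were also annotated to another gene, and 6 distal regions listed in all 4 libraries were promoters of a neighbour.

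**Figure D4:**
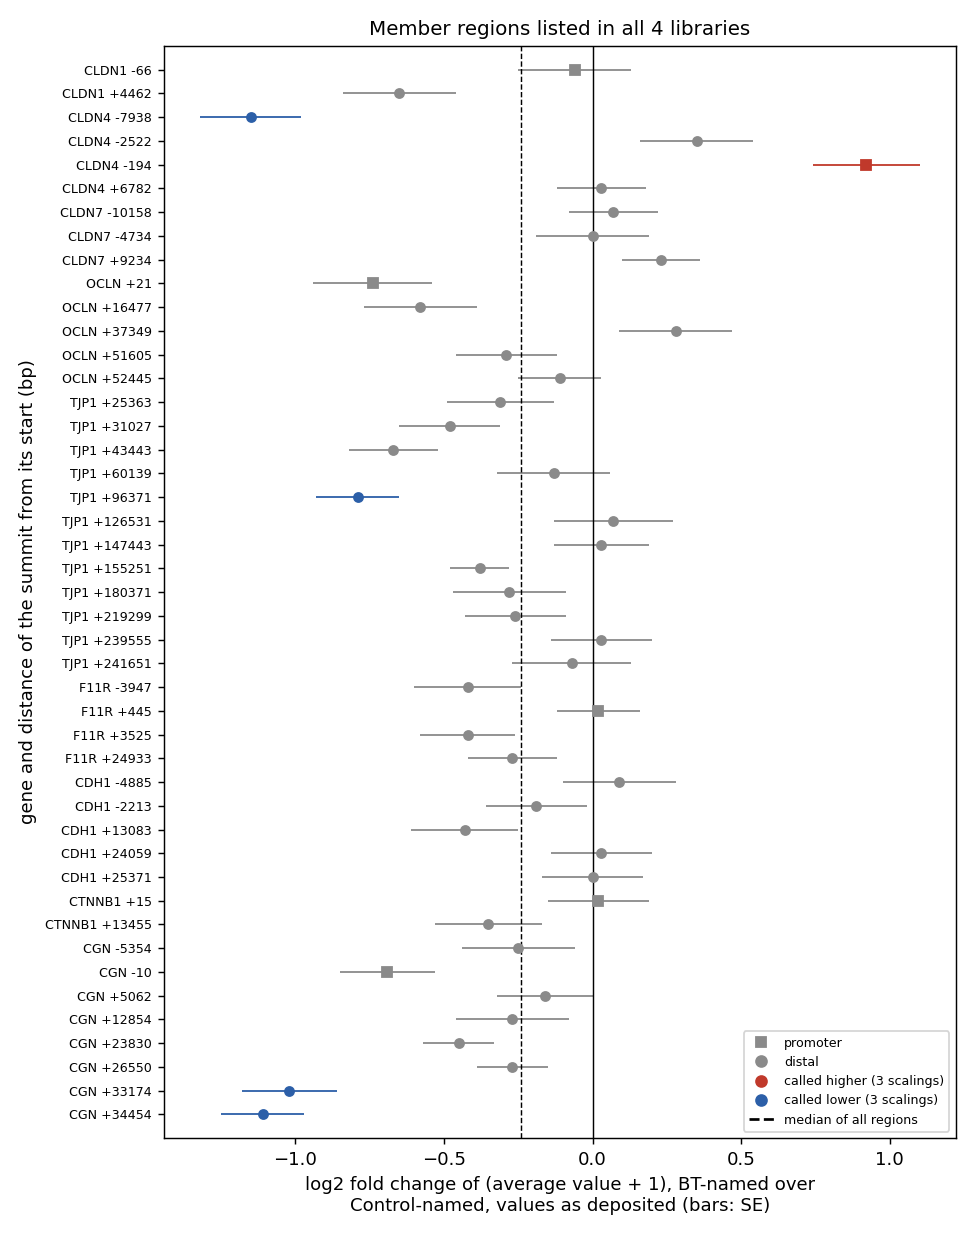
Log2 fold change of the average value plus 1 (BT-named over Control-named, values as deposited, bars are SE) for the 45 junction regions listed in all 4 libraries, with squares for promoters and circles for distal regions. The CLDN4 promoter (0.92) is the only region called higher, the 4 regions called lower lie between −1.15 and −0.79, and most others lie around the median of all regions (dashed, −0.24).

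Promoters of other genes of cell contacts were read against all 12871 gene promoters, of which 4.06% were called higher and 4.72% lower, with a median log2 fold change of −0.12. Of 49 other tight junction genes, 25 had a promoter listed in all 4 libraries, of which 0 were higher and 1 lower (1 and 2 at an unadjusted p under 0.05), with a median log2 fold change of −0.20. The gene called was MAGI1, a scaffold protein, with average values of 191.6 and 179.3 in the Control-named and 117.8 and 113.9 in the BT-named libraries (log2 fold change −0.67 ± 0.15, limma, adjusted p = 5.18e-05). The call was lost without Control-named library 1, BT-named library 1 or BT-named library 2, and with plain variance. Of those not called, PATJ (−0.69 ± 0.20), a scaffold of the Crumbs polarity complex, and AMOTL1 (−0.68 ± 0.15), an angiomotin, had the largest log2 fold changes. The promoter of CLDN5, a claudin best known from endothelium, had peak values of 28 and 33 in the Control-named libraries and was unlisted in the BT-named ones. The claudins of this list measured in all 4 libraries were CLDN3 and CLDN12, and neither was called. CLDN3 had average values of 65.8 and 66.4 against 72.2 and 78.3, with log2 fold changes of 0.18 ± 0.18 as deposited and 0.54 after median centring, where it passed as higher. CLDN12 had −0.25 ± 0.17 as deposited and 0.11 after median centring.

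Of 19 other adherens junction genes, 13 were measured in all 4 libraries, with 0 higher and 0 lower in limma, beside 4.06% and 4.72% of all gene promoters (1 and 0 at an unadjusted p under 0.05, and 1 higher where the mean of several intervals was taken) and a median of −0.23. The largest log2 fold changes were those of AJUBA (−0.58 ± 0.15), a LIM protein, and CTNNA1 (−0.57 ± 0.19), the gene of alpha-catenin, neither of them called.

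Of 15 genes of desmosomes, the spot-like contacts that anchor keratin filaments, 8 were measured, with 1 higher and 1 lower, beside 4.06% and 4.72% of all gene promoters, and a median of −0.25 beside −0.12. JUP, the gene of plakoglobin, a relative of beta-catenin, had average values of 287.4 and 290.6 in the Control-named and 340.9 and 418.2 in the BT-named libraries (log2 fold change 0.38 ± 0.11, limma, adjusted p = 0.00264). This call was lost without BT-named library 2 (0.24), with plain variance (limma, adjusted p = 0.0618) and by peak value (0.05), for which 701 and 693 against 675 and 772 overlapped. DSC1, the gene of the desmosomal cadherin desmocollin-1, had values of 59.7 and 70.9 against 31.9 and 30.5 (−1.04 ± 0.20, adjusted p = 2.57e-06). Those of PERP (−0.39 ± 0.14) and DSC3 (−0.31 ± 0.15) were not called.

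Among 18 regulators of junction genes, 9 were measured, with 0 higher and 0 lower in limma, beside 4.06% and 4.72% of all gene promoters (0 and 0 at an unadjusted p under 0.05) and a median of −0.01. The 2 largest log2 fold changes were those of ZEB1 (−0.46 ± 0.17) and SNAI2 (−0.33 ± 0.15), neither of them called. Both are known repressors of CDH1, as are SNAI1 (0.09 ± 0.14) and TWIST2 (−0.12 ± 0.16), which were not called either. ZEB2 and TWIST1, of the same list, could not be tested. The promoter of ZEB2 was unlisted in BT-named library 2, and that of TWIST1 in Control-named library 1 and BT-named library 2. Promoters of GRHL2, OVOL1, OVOL2, ESRP2, KLF5, EHF and TP63, which are known from epithelia, were unlisted in every library. Those of GRHL1, GRHL3, ESRP1, KLF4 and ELF3, of the same list, were listed in all 4 libraries. Their log2 fold changes ran from −0.30 to 0.10, and none was called.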

How the data were processed

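All 4 ATAC-seq libraries were used (2 Control-named, 2 BT-named). The authors' reads were paired and 42 nt long, per the labels, and their processing notes name Trim Galore 0.4.1, BWA, MACS2 and the build UMD3.1. The deposited table gives for each library its intervals, their peak and average signal, and the genes and CpG islands nearby. The normalization of this signal was not given in the sources used here, and read depth per library was not used here.

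Intervals overlapping by at least 1 bp were merged with pandas 2.3.3 and numpy 2.4.6 in Python 3.11.15, taking the highest value of a library with more than 1 interval there. Each library contributed its own interval, whose bounds differed between libraries. Log2(value + 1) of the 65892 regions listed in all 4 libraries was tested with limma 3.58.1 in R 4.3.3 (two-sided, trended and robust variance, no covariates), with Benjamini-Hochberg adjustment over all regions and a threshold of 0.05 under each of 3 scalings. A gene's promoter was its region with the highest mean. The procedure was tested on simulated data. Counts of listed regions were tested by exact permutation of the libraries. Named were all 9 junction genes, in each further list the promoters called, those listed in 1 group only and the 2 not called with the largest fold change, and the 3 promoters nearest to the junction promoter that changed most. Other claudins and regulators of these lists were named as well. The junction genes, lists and tests were chosen with earlier results of these data known. RefSeq gene names (ARS-UCD2.0) were at hand, but names were kept as deposited. Alternatives were single scalings, peak value, pseudocount, variance model, low values, overlap, promoter distance, replicate block and leaving out each library.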

Additional observations from a re-analysis of the deposited data

How the results depend on the processing

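The call of the CLDN4 promoter as higher and those of CLDN4 −7938, CGN 33174 and CGN 34454 as lower held under every alternative run. Scaling set the counts most. Over all regions, 4539 higher became 19898 with median centring alone and 15382 with quantile normalization alone, and 13189 lower became 25960 as deposited. Junction regions higher went from 1 to 13 and 12, and lower from 4 to 16 as deposited. Junction promoters higher went from 1 to 3 and 3, and lower from 0 to 2 as deposited and 1 with quantile normalization. By peak value, junction regions higher went from 1 to 9 and 7, and lower from 3 to 15 as deposited and 5 with quantile normalization. Other tight junction promoters higher went from 0 to 7 and 5, and lower from 1 to 6 as deposited, 2 with centring, 3 with quantile normalization and 0 with plain variance. Other adherens junction promoters higher went from 0 to 3 and 3, and to 1 with the mean of several intervals, and lower from 0 to 4 as deposited. Desmosome promoters higher went from 1 to 0 by peak value and 0 with plain variance, and lower from 1 to 2 as deposited. Regulator promoters higher went from 0 to 4 and 4, and lower from 0 to 1 as deposited. Of all gene promoters, 4.06% were higher and 20.5% lower as deposited, and their shares under centring or quantile normalization alone are not given here. Nor are the shares of all regions by peak value under a single scaling, or any share at an unadjusted p. Counts without such a share cannot be read as particular to the junction genes.

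With each library left out in turn, all regions higher ranged from 2434 (without BT-named library 2) to 5171 (without Control-named library 2) and all regions lower from 10267 to 11713, junction regions higher from 1 to 2 and lower from 4 to 6, and junction promoters lower from 0 to 1. Other tight junction promoters ranged from 0 to 2 higher and from 0 to 1 lower, other adherens junction promoters from 0 to 2 higher, and desmosome promoters from 0 to 1 higher. Without Control-named library 2, CLDN7 9234 was also called higher, and without BT-named library 1, OCLN 37349. The promoter of OCLN was also called lower without BT-named library 2 (−0.94).

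Promoters near 0 changed sign. CLDN1 gave 0.30 with median centring, 0.26 with quantile normalization, 0.01 by peak value, and from −0.19 to 0.07 with a library left out. With a library left out, F11R ranged from −0.05 to 0.09, being −0.01 without BT-named library 1, and CTNNB1 from −0.05 to 0.10, being −0.02 without Control-named library 2. Both passed as higher with median centring alone (F11R 0.38, CTNNB1 0.38) and with quantile normalization alone (0.34 and 0.39).

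The replicate numbers did not pair the libraries (correlation of deviations 0.0292). With a replicate block, junction promoters lower went from 0 to 1 (CGN, −0.69), junction regions lower from 4 to 6 and other tight junction promoters lower from 1 to 2. Of the 8 junction regions that both Control-named libraries alone listed, 5 were left at a peak value of at least 40. Where no value shows it, the cause of these changes was not tested. The paper refers to a mapping summary of its data sets, which was not used here. The depth behind an unlisted region was thus not taken into account, and 2 libraries a group limit every comparison.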
